A study of Homo sapiens with 2 samples.

Results

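CXCL9, CXCL10 and CXCL11 are the chemokines that bind the receptor CXCR3. They were chosen by gene symbol, as 3 of the 36601 genes listed in both libraries, and each symbol matched 1 gene: CXCL9 (ENSG00000138755), CXCL10 (ENSG00000169245) and CXCL11 (ENSG00000169248). The data are 2 single-cell RNA libraries (10x Genomics 3' v3.1) of colon organoids grown from 1383D6, a human iPS (induced pluripotent stem) cell line. The organoids of the library CNT were untreated, and those of 3CK received TNF-α, IFN-γ and IL-1β, which are cytokines of inflamed mucosa, for 8 days. By its title the series builds an organoid model for ulcerative colitis, and 3CK is set against CNT here to compare ligand transcripts with and without the cytokines. Both libraries come from this 1 line, the labels name no cytokine dose, and each group is 1 library. Treatment cannot be told apart from other differences between the cultures or libraries, no test between conditions was possible, and every interval below is a 95% interval that covers counting error only.

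CXCR3 is a G protein-coupled receptor of activated T cells, above all T helper type 1 and cytotoxic cells, and of natural killer cells. Its ligands draw these cells into tissue, and CXCL11 is known as the ligand with the highest affinity. IFN-γ acts on the 3 genes through the JAK-STAT pathway and through the transcription factor IRF1. TNF-α and IL-1β activate NF-κB, which is known to act together with interferon on CXCL10 in particular. In the inflamed colon the ligands are known as products of epithelium, stroma and myeloid cells.

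After filtering, 2487 CNT barcodes with 101831571 unique molecular identifiers (UMIs) and 1398 3CK barcodes with 91860414 UMIs were kept as cells. A level is given as CPM, the gene's UMIs per 1000000 UMIs of the same cells. On this scale 3 UMIs amounted to 0.0295 CPM for CNT and 0.0327 CPM for 3CK. The median cell had 28911 UMIs in CNT and 62746 in 3CK, so shares of cells are given after each cell was thinned to 5000 UMIs. No barcode was shared by the libraries. Epithelial cells had at least 2 UMIs of EPCAM per 10000, and mesenchymal cells had at least 5 of COL1A1, COL1A2 and COL3A1 together with EPCAM under 1. These gates held 1660 and 574 cells in CNT and 1016 and 124 in 3CK, and 253 and 258 cells met neither. Within 1.5 to 2.5 UMIs of EPCAM per 10000 lay 80 CNT and 76 3CK cells, so the gates are ranges and not cell types. In 3CK the 8 epithelial markers summed to 21460 CPM in the epithelial gate and to 11675 CPM in the mesenchymal gate, while the 8 mesenchymal markers summed to 840.1 and 9274 CPM. Most of the epithelial sum in the mesenchymal gate was KRT8 and KRT18, at 4023 and 6968 CPM, while EPCAM was at 17.2 and CDH1 at 7.57 CPM. The organoid cells labelled as colonic also carried hepatic transcripts (TTR, AFP, ALB, APOA1 and APOA2), which summed to 71657 CPM in CNT and to 24190 CPM in 3CK.

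The 3 ligands were close to absent in untreated organoids and abundant in treated ones. CXCL10 was at 55 UMIs or 0.540 CPM in CNT (exact Poisson interval 0.407 to 0.703) and at 176157 UMIs or 1918 CPM in 3CK. CXCL9 was at 5 UMIs or 0.0491 CPM (0.0159 to 0.115) against 9066 UMIs or 98.7 CPM. CXCL11 was at 23 UMIs or 0.226 CPM (0.143 to 0.339) against 24798 UMIs or 269.95 CPM. On the log2 scale the difference of 3CK over CNT was 11.79 for CXCL10 (11.41 to 12.20), 10.97 for CXCL9 (9.75 to 12.60) and 10.22 for CXCL11 (9.64 to 10.88). The wide intervals come from the few CNT molecules. With equal weight for each cell the log2 ratios were 12.43 for CXCL9, 11.61 for CXCL10 and 10.85 for CXCL11, which turned the order of CXCL9 and CXCL10.

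All 3 ligands passed a log2 ratio of 1, a size that 6.96% of 17523 genes reached upward (those at 1 CPM or more in CNT, 3CK or both). The median log2 ratio of those genes was -0.05. The ligands were under 1 CPM in CNT and entered these genes through their 3CK level alone, so nothing is read from their count or from a rank by ratio. By level in 3CK they stood far apart among all genes, CXCL10 at place 66, CXCL11 at place 520 and CXCL9 at place 1570. A 3' library counts 1 tag per captured molecule whatever the transcript's length, so levels of the 3 genes can be set side by side, although capture may differ between genes. In 3CK there were 7.104 CXCL10 molecules for each CXCL11 molecule (7.01 to 7.20) and 19.4 for each CXCL9 molecule (19.0 to 19.8). In CNT there were 2.39 CXCL10 molecules for each CXCL11 molecule (1.45 to 4.08). CXCL10 was the most abundant of the 3 in both libraries, and it exceeded CXCL11 by more in 3CK than in CNT.

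**Figure D1:**
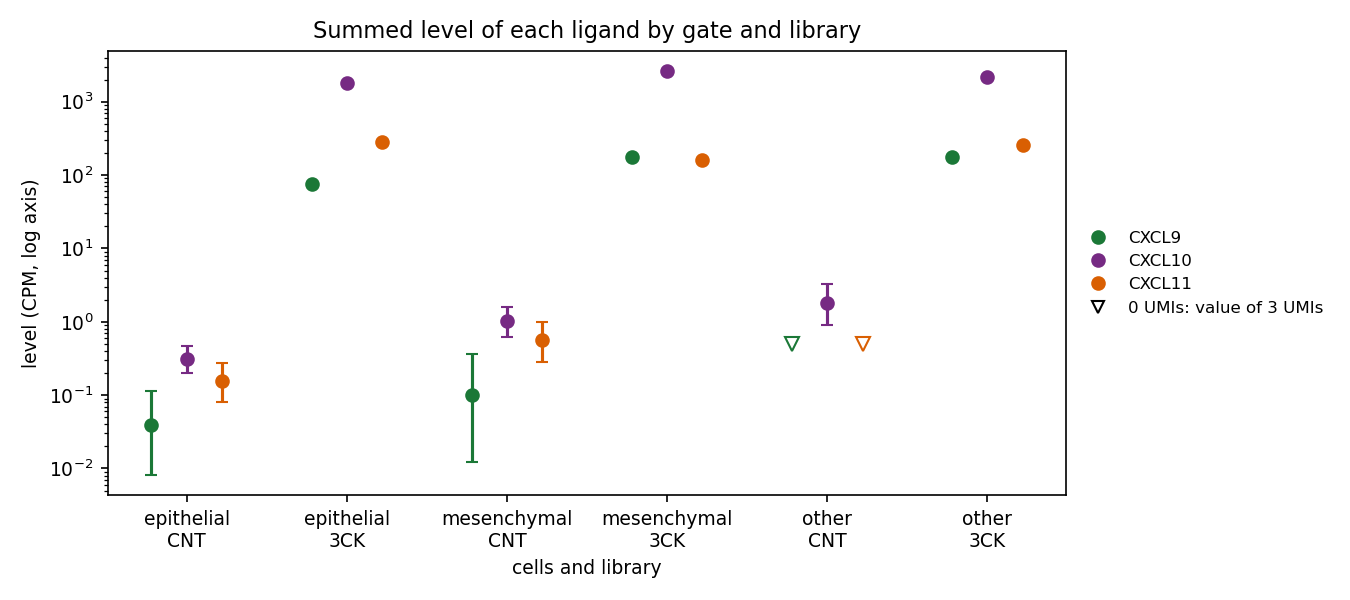
Level of each ligand in CPM (log axis) in the epithelial, mesenchymal and other cells of CNT and 3CK. Points are sums over the cells of 1 library, bars are exact Poisson intervals for counting error, and open triangles mark 0 UMIs, drawn at the value of 3 UMIs. The 3CK points lie between 75.2 and 2594 CPM, and no CNT point lies above 1.83 CPM.

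The genes lie next to each other on the minus strand of chromosome 4 (GRCh38), in a span of 34.8 kb. CXCL9 occupies chr4:76001275-76007509, CXCL10 chr4:76021118-76023497 and the canonical transcript of CXCL11 chr4:76033682-76036070, each with 4 exons. CXCL10 and CXCL11 lie inside the span of ART3, an ADP-ribosyltransferase gene on the opposite strand, and CXCL9 overlaps SDAD1-AS1. No exon of the canonical transcripts overlaps. ART3 was at 1.69 CPM without and 4.19 CPM with cytokines, and SDAD1-AS1 (listed as AC112719.2) at 6 and 11 UMIs, both far below the ligands in 3CK. The log2 ratio of ART3 was 1.31 (1.05 to 1.58). Of the other neighbours, SDAD1 had a log2 ratio of 0.45, NAAA of 0.49, NUP54 of 0.24 and SCARB2 of -0.07. In mesenchymal cells ART3 was at 1.56 and NAAA at 1.00, while SDAD1 was at 0.15, SCARB2 at 0.33 and NUP54 at -0.08.

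The 250 bases before each transcript start are shown because the 3 genes were higher together and their promoters are known targets of the pathways of the added cytokines. They are from RefSeq's promoters (GRCh38.p14), on the minus strand, and cover chr4:76007510-76007759, chr4:76023498-76023747 and chr4:76036071-76036320. Capitals mark matches to 4 motifs searched on both strands: the core of the interferon-stimulated response element (2 copies of GAAA with any 2 bases between them), the gamma-activated sequence of the interferon-gamma response (TTCNNNGAA), the AP-1 site (TGANTCA) and the kappa-B consensus bound by NF-κB.
CXCL9: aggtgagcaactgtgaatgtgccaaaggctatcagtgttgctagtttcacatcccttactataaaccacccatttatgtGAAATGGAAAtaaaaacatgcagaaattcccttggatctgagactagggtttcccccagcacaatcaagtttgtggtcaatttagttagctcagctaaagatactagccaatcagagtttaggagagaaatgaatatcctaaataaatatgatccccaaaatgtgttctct
CXCL10: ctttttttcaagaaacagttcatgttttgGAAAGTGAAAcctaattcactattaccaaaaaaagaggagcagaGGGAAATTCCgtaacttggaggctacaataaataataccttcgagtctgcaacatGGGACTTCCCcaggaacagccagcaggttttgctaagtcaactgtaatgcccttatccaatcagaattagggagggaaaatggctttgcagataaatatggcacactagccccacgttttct
CXCL11: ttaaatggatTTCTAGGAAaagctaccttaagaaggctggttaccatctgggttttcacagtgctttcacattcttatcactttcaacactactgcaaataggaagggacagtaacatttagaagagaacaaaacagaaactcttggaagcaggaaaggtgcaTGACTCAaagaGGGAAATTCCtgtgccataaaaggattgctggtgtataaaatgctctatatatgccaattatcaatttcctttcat

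The response element core began 171 bases before the start of CXCL9 and 221 before that of CXCL10, and 3.02% of 35116 promoter windows of this length hold it. The gamma-activated sequence began 240 bases before the start of CXCL11 and is in 6.57% of the windows. The kappa-B consensus was found at 177 and 122 bases in CXCL10 and at 76 in CXCL11, and 9.96% of the windows hold it. The AP-1 site, 87 bases before the start of CXCL11, is also in 6.57% of the windows. The capitals do not overlap each other. The letters of CXCL9 hold no match to the kappa-B consensus in this window. The 3 windows had 38.4%, 40.8% and 37.2% G and C for CXCL9, CXCL10 and CXCL11, against a median of 58% over all windows. A match is a description of the letters, and binding was not measured.

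The few ligand molecules of CNT were scattered over cells. CXCL9 was in 4 cells, CXCL10 in 23 and CXCL11 in 21 of 2487 CNT cells. Of the CXCL10 cells 12 had 1 UMI, and the highest had 8. In all, 46 CNT cells had any ligand and 2 of them had more than 1 kind. Without thinning, 0.925% of CNT cells had a CXCL10 UMI (exact binomial interval 0.587 to 1.38) against 85.8% of 3CK cells (83.8 to 87.6). After thinning to 5000 UMIs the counts were 0 for CXCL9, 3 for CXCL10 and 2 for CXCL11 of 1544 CNT cells, and the 0, set to 3 cells of 1544, allows a share of up to 0.194% of cells with a UMI. Thinning left out 943 CNT and 335 3CK cells that were shallower.

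In 3CK 60.6% of 1063 thinned cells had a CXCL10 UMI (57.6 to 63.5), 38.5% a CXCL11 UMI (35.5 to 41.5) and 13.8% a CXCL9 UMI (11.8 to 16.1). Without thinning the shares were 85.8%, 63.9% and 37.3%. No class of 3CK cells is known to lack the ligands, so the share that free RNA gives could not be read from such a class. Among the 995 3CK cells with at least 10000 UMIs, 928 had a CXCL10 UMI (93.3%, 91.5 to 94.7) and 67 had none, and the lowest 10% of them had at most 0.122 UMIs per 10000. How much of such low counts came from free RNA was not tested.

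The ligands were spread unevenly over treated cells. In those 995 deep cells CXCL10 had a median of 2.51 UMIs per 10000, a 90th percentile of 52.1 and a highest value of 275. CXCL11 had a median of 0.590 and a 90th percentile of 6.87, and CXCL9 a median of 0 and a 90th percentile of 1.57. Of all CXCL10 UMIs in 3CK, 50% lay in 63 of the 1398 cells and 90% in 263. CXCL11 was a little more even, with 77 and 314 cells. CXCL9 was the most concentrated, with 50% of its UMIs in 18 cells and 90% in 155. The 10% of cells with the most UMIs, 140 cells, held 88.5% of the CXCL9, 73.6% of the CXCL10 and 68.8% of the CXCL11 molecules. These counts use cells of unequal depth.

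**Figure D2:**
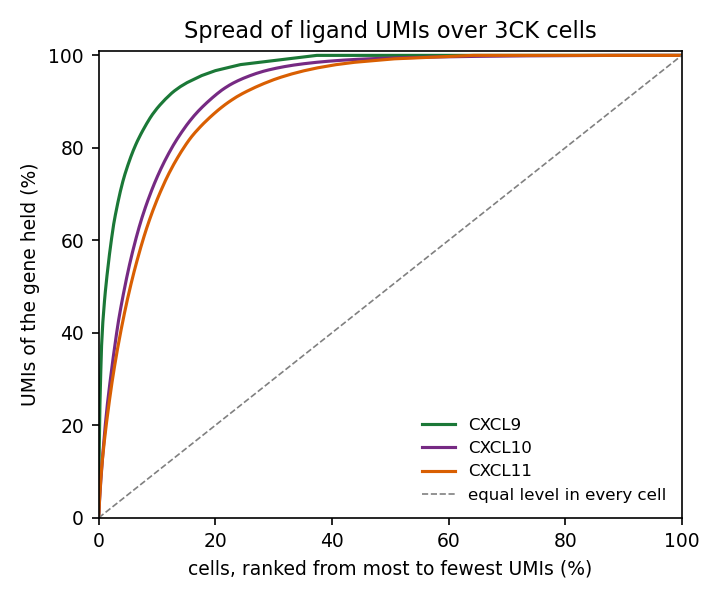
Share of each ligand's UMIs (%) held by the 3CK cells ranked from most to fewest UMIs of that ligand (% of 1398 cells). The dashed line marks an equal level in every cell, and the CXCL9 curve lies above the other two, with 88.5% of its UMIs in the first 10% of cells.

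CXCL9 in 3CK rested on few cells. The 10 cells with the most CXCL9 UMIs held 3837 of them, 42.3%, and 5 were in the epithelial gate, 1 in the mesenchymal gate and 4 in neither. The highest cell had 1123 CXCL9, 1426 CXCL10 and 118 CXCL11 UMIs. It had 144081 UMIs in all, 570 of VIM, an intermediate filament gene of mesenchyme and leukocytes, 85 of COL3A1 and 2 of EPCAM. The epithelial marker list was at 2397 UMIs in it, the mesenchymal list at 921 and the cycling list at 114. It met the mesenchymal gate while carrying epithelial transcripts, which that gate also carried in sum (11675 CPM of the list in 3CK). The identity of this cell was not settled. All 10 cells had VIM and EPCAM UMIs. CXCL9 and CXCL10 are also known products of macrophages, so leukocyte markers were read in these 10 cells. PTPRC, CSF1R, C1QA, C1QB, CD3E and CD79A were at 0 UMIs in them, while CD68 was at 75, FCER1G at 94, TYROBP at 52, CD14 at 13 and LYZ at 6. Over all cells the sum of the 11 leukocyte markers was 90.1 CPM in CNT and 132 CPM in 3CK, with 1 marker (C1QB) at 0 in CNT and none at 0 in 3CK. PTPRC, the defining leukocyte antigen, was at 32 and 41 UMIs. Whether these high cells are doublets, and the part of leukocytes in the CXCL9 level, was not tested beyond these values.

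Within the epithelial gate CXCL10 had 24 CNT and 125174 3CK UMIs (0.315 and 1785 CPM), a log2 ratio of 12.47 (11.90 to 13.11). CXCL9 was at 3 and 5273 UMIs (0.0394 and 75.2 CPM), a log2 ratio of 10.90 (9.35 to 13.18). CXCL11 was at 12 and 20097 UMIs (0.158 and 287 CPM), a log2 ratio of 10.83 (10.02 to 11.78). Upward log2 ratios of at least 1 were reached by 8.48% of 16809 genes in this gate. Here too the ligands entered through their 3CK level alone. How much of these sums came from free RNA or from doublets was not tested.

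Within the mesenchymal gate CXCL10 had 20 CNT and 23642 3CK UMIs (1.02 and 2594 CPM), a log2 ratio of 11.32 (10.69 to 12.03). CXCL9 was at 2 and 1588 UMIs (0.102 and 174 CPM), a log2 ratio of 10.74 (8.89 to 13.79). CXCL11 was at 11 and 1443 UMIs (0.560 and 158 CPM), a log2 ratio of 8.14 (7.30 to 9.15). In this gate 6.05% of 17353 genes had upward log2 ratios of at least 1. The CXCL11 ratio was smaller here than in the epithelial gate, and their counting intervals did not overlap. Collagen genes define the gate, and the mesenchymal markers summed to 4068 CPM over all CNT cells against 1957 CPM over all 3CK cells, so the gate may not hold the same kinds of cells in both. Of 1588 CXCL9 UMIs, 1123 (70.7%) came from the highest cell described above, and without it the gate was at 51.8 CPM. The 11 leukocyte markers summed to 70.1 CPM in the gate in CNT, with C1QB at 0, and to 213 CPM in 3CK, with CD3E at 0. PTPRC was at 11 and 33 UMIs, TYROBP at 27.1 and 87.9 CPM and FCER1G at 1.68 and 15.7 CPM. Their part in the ligand levels of the gate was not tested.

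In cells of neither gate CXCL10 had 11 CNT and 27341 3CK UMIs, a log2 ratio of 10.21 (9.37 to 11.21). CXCL9 was at 0 and 2205 UMIs, and CXCL11 at 0 and 3258. Against a floor of 3 UMIs over these CNT cells their log2 ratios were at least 8.45 and at least 9.01.

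Inside 3CK the ligands differed in where they were highest. CXCL11 was at 287 CPM in epithelial and 158 CPM in mesenchymal cells, a log2 ratio of epithelial over mesenchymal of 0.86 (0.78 to 0.93). CXCL10 was at 1785 and 2594 CPM, a log2 ratio of -0.54 (-0.56 to -0.52). The same ratio had a median of -0.07 over 17177 genes, with the middle 50% from -0.70 to 0.57. CXCL9 was at 75.2 and 174 CPM, a log2 ratio of -1.21, but leaving out the highest cell of each gate turned it to 0.44. CXCL10 and CXCL11 kept their direction when their highest cells were left out, at -0.46 and 1.02. In these sums of UMIs the direction for CXCL9 was thus set by 1 cell, while those for CXCL10 and CXCL11 were not. With equal weight for each cell the CXCL9 ratio was -2.05, from 77.8 CPM in epithelial and 323 CPM in mesenchymal cells. The highest CXCL9 level of a mesenchymal cell then lay in a different cell, which was too shallow to be among the deep cells. Over deep cells alone the equal-weight levels were 67.4 and 126 CPM. The shallow cell was at 260 CXCL9 UMIs per 10000 and the cell with 1123 CXCL9 UMIs at 77.9, while the median mesenchymal cell was at 0. Over deep cells the direction at equal weight was thus set by the cell with 1123 UMIs. Over all cells it was set by both of these cells together.

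Shares of thinned 3CK cells gave the same order for CXCL10 and CXCL11. CXCL10 was seen in 59.4% of 776 epithelial cells (55.9 to 62.9) and 71.0% of 107 mesenchymal cells (61.5 to 79.4). CXCL11 was seen in 42.7% (39.1 to 46.2) and 26.2% (18.1 to 35.6). For CXCL9 the shares were 13.4% and 8.41%, an order against that of the CPM. The median deep epithelial cell had 2.09 CXCL10 UMIs per 10000, and the median deep mesenchymal cell had 7.17. For CXCL11 those medians were 0.807 and 0.255. The plot of levels per cell shows the same pattern, with mesenchymal cells shifted to higher CXCL10 and lower CXCL11.

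**Figure D3:**
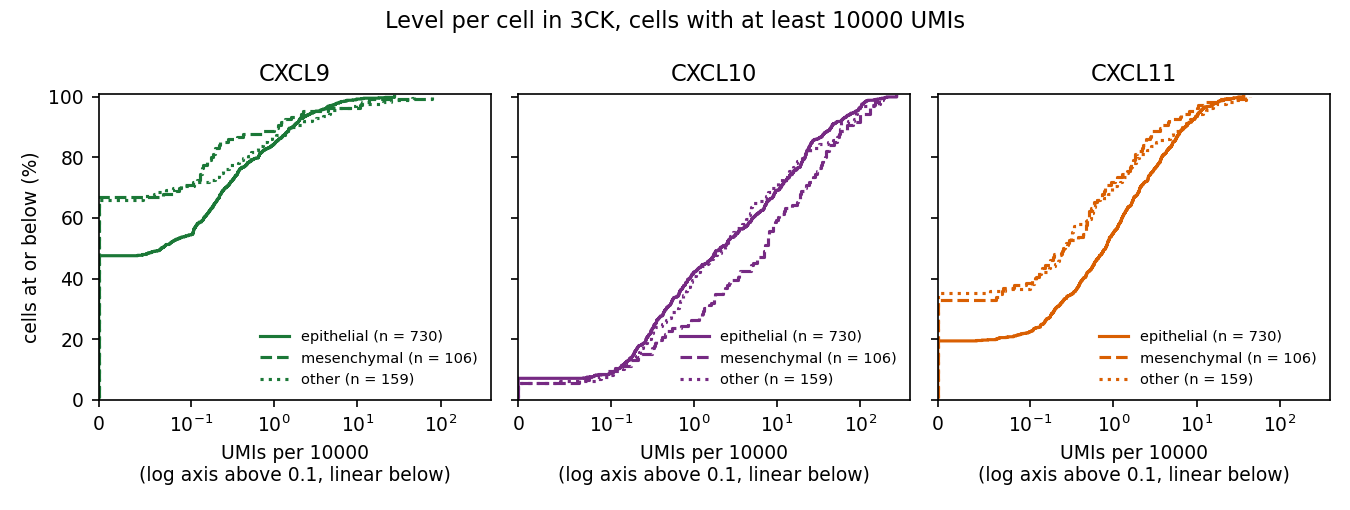
Cumulative share of 3CK cells (%) at or below a level in UMIs per 10000 (log axis above 0.1, linear below), for 730 epithelial, 106 mesenchymal and 159 other cells with at least 10000 UMIs. The mesenchymal curve lies to the right of the epithelial curve over most of the CXCL10 range and to the left for CXCL11, with medians of 7.17 against 2.09 and of 0.255 against 0.807.

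The make-up of the ligand molecules followed. Of the 3 ligands' UMIs in 3CK epithelial cells 83.1% were CXCL10 (82.96 to 83.34), 13.3% CXCL11 (13.2 to 13.5) and 3.50% CXCL9. In mesenchymal cells 88.6% were CXCL10 (88.2 to 89.0), 5.41% CXCL11 (5.14 to 5.69) and 5.95% CXCL9, and without the highest CXCL9 cell the shares were 92.5%, 5.52% and 1.94%. There were 6.23 CXCL10 molecules for each CXCL11 molecule in epithelial cells (6.14 to 6.32) and 16.4 in mesenchymal cells (15.5 to 17.3). Barcodes under 10000 UMIs had 66.6% CXCL10, 19.9% CXCL11 and 13.5% CXCL9 among 1903 ligand UMIs. Of their 257 CXCL9 UMIs 73 lay in 1 barcode, and 49 of the 403 barcodes had any. The ratio of the 3 transcripts thus differed between kinds of barcode beyond counting error, which does not cover the weight of single cells.

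**Figure D4:**
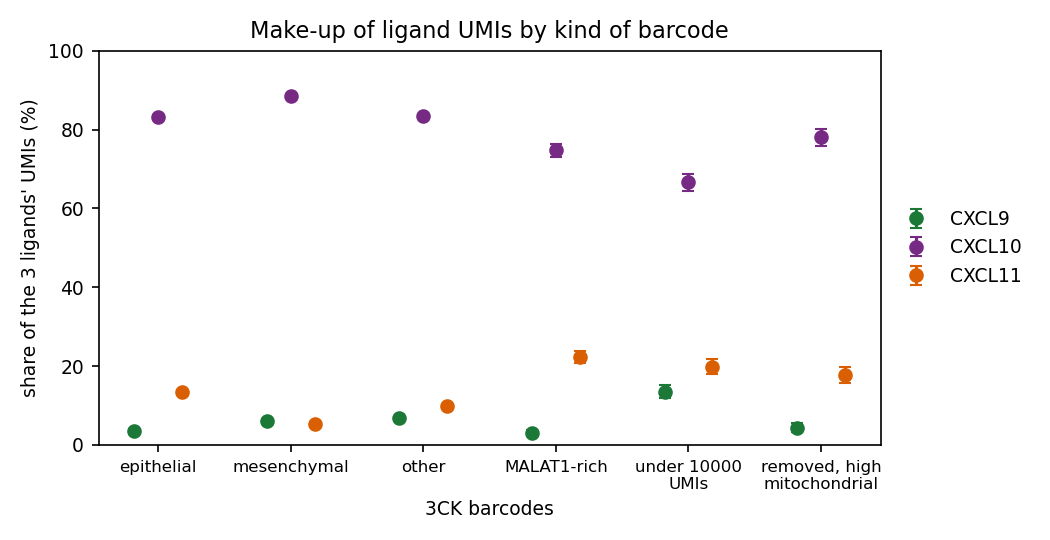
Share of each ligand (%) among the 3 ligands' UMIs in 6 kinds of 3CK barcodes, with exact binomial intervals for counting error. CXCL10 ranges from 66.6% in barcodes under 10000 UMIs to 88.6% in mesenchymal cells, and CXCL11 from 5.41% in mesenchymal cells to 22.3% in MALAT1-rich barcodes.

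Several ligands were often seen in the same cell. Of the 1063 thinned 3CK cells 87 had all 3 (8.18%, 6.61 to 10.0), 261 had CXCL10 with CXCL11 and 265 had CXCL10 without the others. CXCL11 without the others was seen in 55 cells and CXCL9 without the others in 23. CXCL9 went with CXCL10 alone in 31 cells and with CXCL11 alone in 6. No ligand was seen in 335 cells (31.5%, 28.7 to 34.4), which at this depth does not show that they lacked the transcripts. Of cells with a CXCL11 UMI 85.1% also had CXCL10 (81.3 to 88.4), against 45.3% of cells with none (41.4 to 49.2). Of cells with a CXCL10 UMI 18.3% had CXCL9 (15.4 to 21.5), against 6.92% of cells with none (4.68 to 9.79).

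The pattern differed between gates mainly in CXCL10 without the others. That pattern held 21.3% of epithelial cells (18.4 to 24.3) and 43.9% of mesenchymal cells (34.3 to 53.9). CXCL10 with CXCL11 held 27.4% (24.3 to 30.7) and 18.7% (11.8 to 27.4). All 3 ligands were in 8.38% and 6.54%. The intervals of the first pair did not overlap, and those of the others did.

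**Figure D5:**
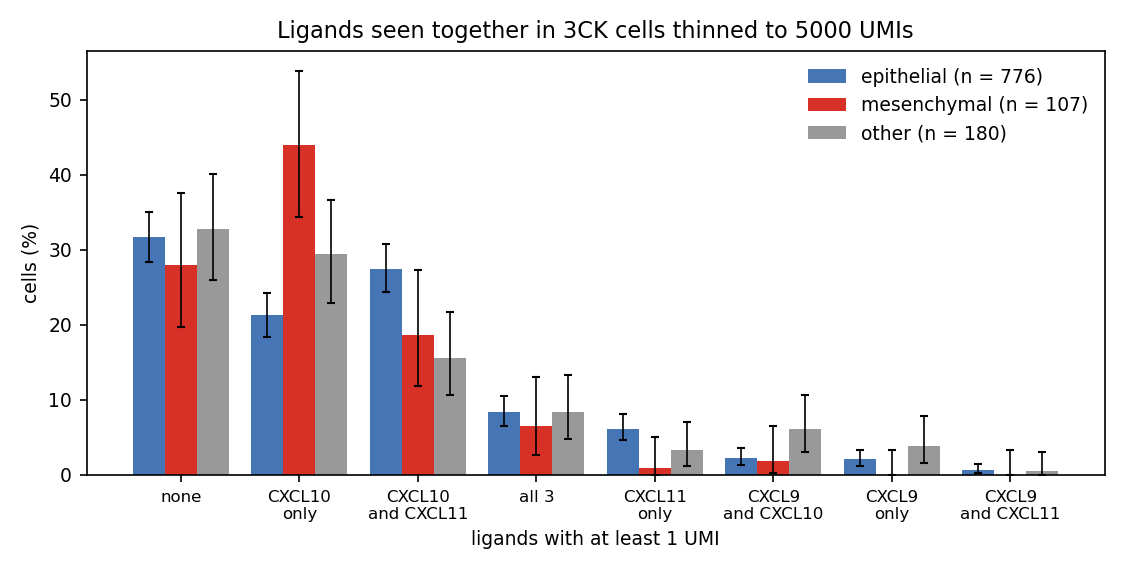
Share of 3CK cells (%) with each combination of ligands at 1 UMI or more after thinning to 5000 UMIs, for 776 epithelial, 107 mesenchymal and 180 other cells, with exact binomial intervals. CXCL10 alone reaches 43.9% of mesenchymal and 21.3% of epithelial cells, while all 3 together stay between 6.54% and 8.38%.

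Levels moved together from cell to cell. In the 730 deep epithelial cells of 3CK, each thinned to 10000 UMIs, Pearson's r of log(1 + UMIs) was 0.76 between CXCL10 and CXCL11, 0.41 between CXCL9 and CXCL10 and 0.43 between CXCL9 and CXCL11. Spearman's rho was 0.71, 0.36 and 0.36. In the 106 deep mesenchymal cells r was 0.50, 0.30 and 0.31. Of the 73 epithelial cells in the top 10% for CXCL10, 47 were also in the top 10% for CXCL11 and 32 in that for CXCL9, and 25 were in all 3. These cells share 1 library and are not replicates, so the values are descriptions.

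Among the 3347 genes that reached 50 CPM in 3CK, the gene most like CXCL10 in epithelial cells was CXCL11. It was followed by IDO1 (r 0.46), the tryptophan-degrading enzyme, TNFSF10 (0.45), the death ligand TRAIL, the ubiquitin-like modifier ISG15 (0.44) and the cytokine IL32 (0.44). The median r with CXCL10 over these genes was 0.02 and the 95th percentile 0.22. CXCL11 was most like CXCL10, then IDO1 (0.46), the guanylate-binding protein GBP5 (0.44), CXCL9 and ISG15 (0.43). CXCL9 was most like CXCL11 and CXCL10, and IDO1, TNFSF10 and the transporter SLC15A3 followed at 0.23 each. CXCL9 was not among the 5 genes most like CXCL10.

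In mesenchymal cells the gene most like CXCL10 was GBP1 (r 0.58), another guanylate-binding protein. IDO1 (0.52), the transcription factor IRF1 (0.50), CXCL11 (0.50) and the vesicle protein VAMP5 (0.45) came next. CXCL11 was most like CXCL10, then the channel gene CALHM6 (0.48), IDO1 (0.44), IRF1 (0.44) and GBP4 (0.42). CXCL9 was sparse there, with a UMI in 35 of the 106 cells before thinning. Its highest r was 0.37, for SAV1, followed by TNFAIP2, PDZK1IP1, ERO1A and MVB12A down to 0.31, and these weak values are no finding.

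Subsets of the deep 3CK cells, cut at limits chosen with these data known, differed in ligand level. Epithelial cells rich in MALAT1, a nuclear RNA (at least 300 UMIs per 10000), had 320 CPM of CXCL10 in 82 cells, against 1908 CPM in the other 648. The log2 ratio was -2.58 for CXCL10, -2.86 for CXCL9 and -1.36 for CXCL11. Their median depth was 53242 UMIs against 97345. MALAT1-rich cells were thus low in each ligand, and least so in CXCL11.

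TTR, which encodes a carrier protein of liver and yolk sac, was the marker of hepatic transcripts. The 58 epithelial cells with TTR under 10 UMIs per 10000 had 2892 CPM of CXCL10 and the 375 with at least 100 had 1642 CPM, a log2 ratio of 0.82 (0.79 to 0.84). CXCL11 was at 467 and 224 CPM, and CXCL9 at 64.2 and 76.4 CPM. The median CXCL10 level per cell was 1.90 UMIs per 10000 in the first set and 2.23 in the second, so the order of the sums was not that of the typical cell. Cycling epithelial cells (27, with at least 1 UMI of MKI67 and TOP2A per 10000) had 1459 CPM of CXCL10 against 1809 in the rest, with a median of 0.329 against 2.21 UMIs per 10000. CXCL9 was at 74.8 and 74.9 CPM in these sets. The 9 cells with enterocyte transcripts (FABP2 and RBP2 at 5 or more per 10000) had 245 CPM of CXCL10, 24.1 of CXCL11 and 49.6 of CXCL9, against 1809, 288 and 75.2 CPM in the rest. Of their 163 CXCL10 UMIs 128 lay in 1 cell. In CNT 59 deep epithelial cells met that enterocyte limit.

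Among deep cells of neither gate, those with VIM at 10 or more UMIs per 10000 had higher sums of each ligand. The 64 cells had 2969 CPM of CXCL10 against 1050 in the 95 others, 255 against 40.6 CPM of CXCL9 and 320 against 165 CPM of CXCL11. Of the 1861 CXCL9 UMIs in the VIM-high cells, 2 cells held 555 and 529, and the median CXCL9 level was 0 in both sets. The median CXCL10 level was 12.5 UMIs per 10000 in the VIM-high cells and 0.906 in the others. Their median depth was 115140 UMIs against 44957. The leukocyte markers summed to 236 CPM in the VIM-high cells, with none of the 11 at 0, and to 62.4 CPM in the others, with CD14 and C1QA at 0. In the VIM-high cells PTPRC was at 1 UMI, CSF1R at 2 and TYROBP at 458. The part of depth or of leukocyte transcripts in these differences was not tested.

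The ligands' own receptor and modifiers did not show differences of their size. CXCR3 was at 9 UMIs in CNT and 7 in 3CK, so receptor-bearing lymphocytes were hardly represented. ACKR3, a scavenging receptor that binds CXCL11, was at 4.05 and 3.86 CPM over all cells. By gate it was at 1.73 and 2.81 CPM in epithelial cells and at 12.6 and 13.4 CPM in mesenchymal cells. DPP4, the peptidase that trims the ligands' first residues, was at 434 and 386 CPM. PF4, a platelet chemokine that also binds a form of CXCR3, was lower over all cells, at 6.69 and 2.77 CPM (log2 ratio -1.27, -1.49 to -1.06). It was at 8.38 and 2.95 CPM in epithelial cells, but at 1.58 and 2.96 CPM in mesenchymal cells. PF4V1 was at 3 and 2 UMIs. SDC4, a heparan sulfate proteoglycan of the kind that holds chemokines at the cell surface, was at 89.0 and 244 CPM, and SDC1 at 48.3 and 41.9 CPM.

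Genes of the ligands' pathway, from upstream receptors and transcription factors to the ligands' receptors and anchors, went both ways. Of the 34 listed genes 30 had at least 1 CPM in CNT, 3CK or both. Of these, 17 had a log2 ratio of at least 1, 3 of at most -1 and 10 lay between, with a median of 1.12. The interferon gene IFNL1, at 0.0295 CPM in CNT, reached 1 CPM through 3CK alone. Its place among the 17 was fixed by that limit. For comparison, 6.96% of all genes passed upward and 11.3% downward. The interferon-gamma receptor and JAK-STAT group had 8 of 9 genes past 1. STAT2 went from 23.8 to 87.9 CPM (1.88) and JAK2 from 17.2 to 62.1 CPM (1.85). The feedback inhibitor SOCS1 went from 15.9 to 76.8 CPM (2.27).

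Among 5 interferon regulatory factors 4 passed 1, with IRF1 from 23.3 to 376 CPM (4.01) and IRF7 from 21.2 to 77.7 CPM (1.87), while IRF2 was at 0.64. Of the 6 NF-κB genes 2 passed 1, the inhibitor NFKBIA from 47.7 to 159 CPM (1.74) and NFKBIZ from 38.6 to 86.1 CPM (1.16), while the subunit RELA was at 0.65 and NFKB1 at 0.59. The JAK-STAT group was not alike in both gates: 8 of its 9 genes passed 1 in epithelial cells, with a median of 1.91, and 3 of 9 in mesenchymal cells, with a median of 0.31. IRF genes passed in 4 of 5 cases in both gates, but in mesenchymal cells IRF9 was at the limit (1.00, 0.86 to 1.14). IRF8 rested there on 14 CNT and 20 3CK UMIs and was under 1 CPM in CNT. Of all genes 8.48% passed upward in epithelial and 6.05% in mesenchymal cells. No ratio was tested between gates.

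Of 4 receptor genes for the other added cytokines, 1 passed 1 and 2 passed -1 over all cells, with a median of -0.27. Of all genes 6.96% passed upward and 11.3% downward. The TNF receptor TNFRSF1B had a log2 ratio of 2.74 and TNFRSF1A of 0.52. Over all cells the chains of the IL-1 receptor were lower, IL1R1 at -1.38 (30.4 and 11.7 CPM) and IL1RAP at -1.06 (25.9 and 12.4 CPM). IL1R1 was at -0.36 in epithelial and -1.16 in mesenchymal cells, and IL1RAP at -1.12 and -0.76. The mesenchymal gate held 23.1% of CNT and 8.87% of 3CK cells. The part of this difference in the ratios over all cells was not tested.

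Transcripts of interferons made by the cells themselves were few. IFNG was at 3 and 2 UMIs and IFNB1 at 0 and 1, whereas IFNL1, an interferon of epithelial surfaces, was at 3 CNT and 93 3CK UMIs (0.0295 and 1.01 CPM, a log2 ratio of 5.10, 3.51 to 7.41).

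Other CXC chemokines act on neutrophils and other cells through different receptors. Over all cells 10 of 11 listed genes had at least 1 CPM, 7 passed a log2 ratio of 1 and none passed -1. Their median log2 ratio was 3.27, and 6.96% of all genes passed upward. CXCL8, the main neutrophil chemokine, went from 9.22 to 271 CPM (4.88), CXCL5 from 18.0 to 514 CPM (4.83) and CXCL1 from 17.6 to 465 CPM (4.72). By level in 3CK over all cells, CXCL5 and CXCL1 lay between CXCL11 at 270 CPM and CXCL10 at 1918 CPM. CXCL8 was close to CXCL11, and CXCL9 was lower at 98.7 CPM. In mesenchymal cells CXCL8 had a log2 ratio of 8.12 (7.85 to 8.41), beside 8.14 for CXCL11. By gate in 3CK, CXCL8 was at 55.7 CPM in epithelial and 1575 CPM in mesenchymal cells, where CXCL11 was at 287 and 158 CPM. Over all cells CXCL12 was at 0.39 and CXCL14 at -0.87, and CXCL13 was under 1 CPM in both libraries. By gate CXCL12 was at -0.17 in epithelial and 1.34 in mesenchymal cells, and CXCL14 at -1.12 and 0.18.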

How the data were processed

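The authors deposited, per library, a matrix of raw UMI counts per gene and barcode, made with Cell Ranger 7.1.0, per the file headers, on the build GRCh38 per the submitters' processing notes. The sources used here do not give the annotation version or the use of strand. Barcodes with at least 500 genes and at most 20% mitochondrial UMIs were kept, which removed 412 and 306 CNT and 52 and 175 3CK barcodes. The highest Scrublet scores (scanpy 1.11.5) were then removed at 0.8% per 1000 barcodes (52 CNT and 16 3CK).

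UMIs were summed over the cells of a library or gate and scaled to CPM. Sums carry exact Poisson intervals, shares exact binomial (Clopper-Pearson) intervals, and ratios intervals from the exact binomial share of both counts. A sum of 0 was set to 3 UMIs over the cells named, and a share of 0 to 3 cells, in place of the exact limit. Cells were thinned to 5000 UMIs for shares and to 10000 for correlations, without replacement. The steps were tested on simulated data.

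The named genes are the 3 ligands, for each the 5 genes of highest correlation in each gate, and lists of pathway genes, CXC chemokines, chromosome neighbours and cell type markers. The members and lists were chosen with earlier results of these data known. The value of 1 gene of the pathway list is not reported here, and the list's counts and medians include it. SDAD1-AS1 was added as an overlapping gene after its overlap was seen, and the subset limits were chosen with the data known. Values of smooth muscle, endothelial, neural and cycling marker lists were computed in the same way. In 3CK these summed to 247, 26.1, 5.27 and 63.8 CPM. Gene positions and exons are from GENCODE on GRCh38. Alternatives covered filters, doublets, scaling (TMM by edgeR 4.0.16, or without the 50 most abundant genes), thinning, gates and weights.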

Additional observations from a re-analysis of the deposited data

Results flagged for a closer look

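Barcodes that the filter on genes and mitochondrial share had removed, which no comparison used, carried the ligands in 3CK as well. The 227 removed 3CK barcodes had 45.6 CPM of CXCL9, 830 CPM of CXCL10 and 190 CPM of CXCL11, and the 718 removed CNT barcodes had 0 UMIs of each. The limit for these CNT barcodes was 1.26 CPM, the value of 3 UMIs. The CXCL10 level of removed 3CK barcodes was below the 1918 CPM of kept cells. The 175 of them removed for mitochondrial share had 854 CPM, and the 52 removed for few genes had 381 CPM from 27 UMIs.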

How the results depend on the processing

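Of 99 values computed under alternatives, 71 stayed within the counting error or spread allowed, 26 moved and 2 reversed. The log2 ratios of 3CK over CNT stayed within their counting intervals, but with equal weight for each cell they went to 12.43 for CXCL9, 11.61 for CXCL10 and 10.85 for CXCL11, which turned the order of CXCL9 and CXCL10. Shares of cells followed depth. The shares for CXCL9, CXCL10, CXCL11 and all 3 ligands were 21.8%, 70.4%, 49.2% and 14.9% with thinning to 10000 UMIs. They were 37.3%, 85.8%, 63.9% and 31.04% without thinning, and 5.83%, 47.04%, 23.05% and 2.73% where at least 2 UMIs were asked for. With a stricter filter (1000 genes, 10% mitochondrial UMIs) CXCL10 was at 63.8%, and with no removal of doublets all 3 ligands were at 10.03%.

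The log2 ratios of epithelial over mesenchymal cells for CXCL9, CXCL10 and CXCL11 were 0.48, -1.003 and 1.13 with stricter gates (EPCAM at least 5, collagens at least 20, EPCAM under 0.5 per 10000), which held 774 and 65 cells. They were -2.05, -0.67 and 0.69 with equal weight for each cell. Without the highest cell of each gate, a setting chosen after seeing the data, they were 0.44, -0.46 and 1.02, so CXCL9 reversed there and with stricter gates. The CXCL10 share of ligand UMIs was 82.3% in epithelial and 94.9% in mesenchymal cells with stricter gates, 69.4% and 84.8% with equal weights, and 92.5% in mesenchymal cells without the highest CXCL9 cell. The cause of these moves was not tested. No paired analysis was possible because each group is 1 library, and for the same reason no replicate could be left out. The CNT levels rest on 5 to 55 molecules, which limits the ratios more than the depth of 3CK does.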
